A study of Mus musculus with 18 samples.

Results

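The genes described here encode the cardiac myosin chains Myh6, Myh7, Myl2, Myl3, Myl4 and Myl7, measured in the middle of 3 parts of the mouse embryo. Members were the probe sets that the platform annotation gives to 1 of these symbols and no other, where a probe set is a group of short oligonucleotides read as 1 intensity. There were 6 such probe sets, for 4 of the 6 genes, among 13057 probe sets on both array types. Myh6 and Myl2 had a probe set on each array type, Myl3 had 1 on type b and Myl4 had 1 on type a. Myh7 and Myl7 had none and were not analysed here. All 6 probe sets were bright enough to be tested.

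The study compared mouse embryos of 3 genotypes at the gene Nkx2-5 (Csx in the labels), which encodes a homeobox factor that is active in early heart cells, as a model of congenital heart disease. They were wild type, heterozygous, or homozygous for the mutation, and all were taken at embryonic day 9.5. Every genotype had 3 arrays of each of 2 array types, a and b, which carry different probe sets. Replicates keep their label numbers. Wild type has 1, 5 and 7, heterozygous has 3, 4 and 8, and homozygous mutant has 2 and 6 on both types plus an array numbered 8 on type a (8a) and 9 on type b (9b). The labels do not say whether 8a and 9b hold the same RNA, whether arrays of both types with the same number share an RNA sample, whether embryos were pooled, what strain the mice had, or how the Nkx2-5 allele was made. The spread behind each p-value below is thus that of these samples and could be technical. Nkx2-5 itself was not analysed here, so its level gave no check on the genotypes.

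Myosin is the motor of the heart muscle cell. Each molecule joins a pair of heavy chains, which split ATP and pull on actin, with essential and regulatory light chains that stiffen and tune the lever arm. In the mouse Myh6 encodes the alpha heavy chain and Myh7 the beta heavy chain. Myl2 and Myl7 are the ventricular and atrial regulatory light chains, and Myl3 and Myl4 are the ventricular and atrial essential light chains. In the embryo the chamber-restricted patterns are still forming, Myl4 is made throughout the early heart tube and also in embryonic skeletal muscle, Myl3 is also made in slow skeletal muscle, and Myl2 marks the ventricle from early on. Loss of Myl2 from the ventricle is a known feature of mouse embryos without Nkx2-5.

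The promoter windows are shown because Nkx2-5, the gene mutated here, binds DNA. RefSeq windows of 300 bases, from 250 bases before to 50 after the listed start, were matched for the 4 measured genes on build GRCm38.p6. Capitals mark AAGTG, the core of the Nkx2-5 binding sequence, AGATAA, bound by GATA factors, and TATAAA, each on either strand.
Myh6, chr14:54966558-54966857, minus strand: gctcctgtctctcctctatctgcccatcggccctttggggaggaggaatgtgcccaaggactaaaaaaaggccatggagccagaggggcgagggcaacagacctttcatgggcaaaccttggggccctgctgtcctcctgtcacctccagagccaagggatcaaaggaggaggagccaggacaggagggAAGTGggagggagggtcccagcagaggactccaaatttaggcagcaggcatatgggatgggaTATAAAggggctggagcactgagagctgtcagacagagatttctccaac
Myl2, first listed start, chr5:122092474-122092773, plus strand: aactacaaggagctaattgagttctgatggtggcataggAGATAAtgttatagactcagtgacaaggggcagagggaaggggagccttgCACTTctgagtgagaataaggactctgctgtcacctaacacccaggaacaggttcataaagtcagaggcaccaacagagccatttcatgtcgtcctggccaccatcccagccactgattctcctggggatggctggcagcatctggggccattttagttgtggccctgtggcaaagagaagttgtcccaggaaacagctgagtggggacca
Myl2, other listed start, chr5:122092939-122093238, plus strand: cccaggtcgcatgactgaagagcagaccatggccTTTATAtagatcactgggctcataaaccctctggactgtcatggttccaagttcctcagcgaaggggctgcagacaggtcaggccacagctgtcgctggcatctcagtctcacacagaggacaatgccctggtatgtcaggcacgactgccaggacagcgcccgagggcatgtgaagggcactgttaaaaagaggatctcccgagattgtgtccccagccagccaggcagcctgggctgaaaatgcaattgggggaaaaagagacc
Myl3, chr9:110763428-110763727, plus strand: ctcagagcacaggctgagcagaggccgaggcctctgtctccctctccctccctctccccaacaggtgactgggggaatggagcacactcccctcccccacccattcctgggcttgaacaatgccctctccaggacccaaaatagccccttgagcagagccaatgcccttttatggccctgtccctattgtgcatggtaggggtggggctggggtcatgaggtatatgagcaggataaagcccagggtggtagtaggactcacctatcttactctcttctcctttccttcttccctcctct
Myl4, chr11:104550413-104550712, plus strand: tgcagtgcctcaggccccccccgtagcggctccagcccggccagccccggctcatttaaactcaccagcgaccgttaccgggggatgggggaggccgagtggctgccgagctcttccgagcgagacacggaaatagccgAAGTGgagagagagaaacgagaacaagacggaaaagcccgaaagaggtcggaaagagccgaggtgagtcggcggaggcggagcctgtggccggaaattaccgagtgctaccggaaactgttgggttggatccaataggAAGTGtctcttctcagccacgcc
AAGTG was found at 1 place in the Myh6 window, 2 places in the Myl4 window and 1 place in the first Myl2 window, and 46.4% of all 32851 promoter windows of this length hold it. The longer form TNAAGTG, which contains AAGTG and is held by 11.5% of all windows, was in none of the 5. AGATAA was in the first Myl2 window alone and is held by 11.2% of all windows. TATAAA was in the Myh6 window and the other Myl2 window and is held by 13.6% of all windows. CC and GG separated by 6 bases, the wide outline of the site of serum response factor, were found 4 times in the Myh6 window, 5 times in the Myl3 window and 4 times in the Myl4 window, and are held by 73.3% of all windows. They were in neither Myl2 window. The Myl2 starts are those the RefSeq table lists, and whether the heart uses them was not tested. A match is a description of letters and not a binding site.

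Values are intensity on the deposited linear scale, and a level can be compared between arrays of a type but not between probe sets. All 6 probe sets lay above the floor used for testing, 375.1 on type a and 523.1 on type b, on every array. Of the tested probe sets 3969 were on type a and 2966 on type b. Arrays 8a and 9b stood apart in control signals from all others of their type, with an actin 3' to 5' ratio of 2.5 against 0.967 to 1.41 on type a and 2.28 against 0.849 to 1.4 on type b. BioB, a bacterial control transcript, read 3950 on 8a against at most 1539, and 4531 on 9b against at most 2320. Fold changes and chain differences of homozygous mutants are therefore given with and without these arrays, and the part of the control signals in the results was not tested. Since the samples are bulk tissue, fewer heart muscle cells and less RNA per cell cannot be told apart.

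Myl2, the ventricular regulatory light chain, was the chain that varied most among homozygous mutants. On type a its intensity was 6649, 7779 and 8710 in wild type 1, 5 and 7, 5368, 3221 and 7041 in heterozygous 3, 4 and 8, and 1306, 4203 and 14668 in homozygous mutant 2, 6 and 8a. On type b it was 10592, 13088 and 15308 in wild type, 9597, 6558 and 9809 in heterozygous and 2169, 7483 and 22957 in homozygous mutant 2, 6 and 9b. On each type homozygous mutants 2 and 6 lay below all 3 wild-type arrays and the remaining homozygous mutant lay above them. The highest homozygous mutant array was 11.2-fold above the lowest on type a, the widest such range of all 3969 tested probe sets there. On type b the range was 10.6-fold, which ranked 17 of 2966. Homozygous mutant 2 and 6 alone differed 3.22-fold on type a and 3.45-fold on type b. In wild type the ranges were 1.31-fold and 1.45-fold. The order of the means on type a was heterozygous 5210 ± 1915, homozygous mutant 6726 ± 7030 and wild type 7713 ± 1032 (SD, n = 3), and on type b it was 8655 ± 1819, 10870 ± 10800 and 12996 ± 2360 in the same order. On both array types Myl2 was thus lowest in homozygous mutant 2, then 6, then 8a or 9b. Arrays of the 2 types may share RNA, so the types need not be separate observations. Both Myl2 probe sets carry the maker's suffix for probes shared by a sequence family, and signal from related genes was not tested.

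**Figure D1:**
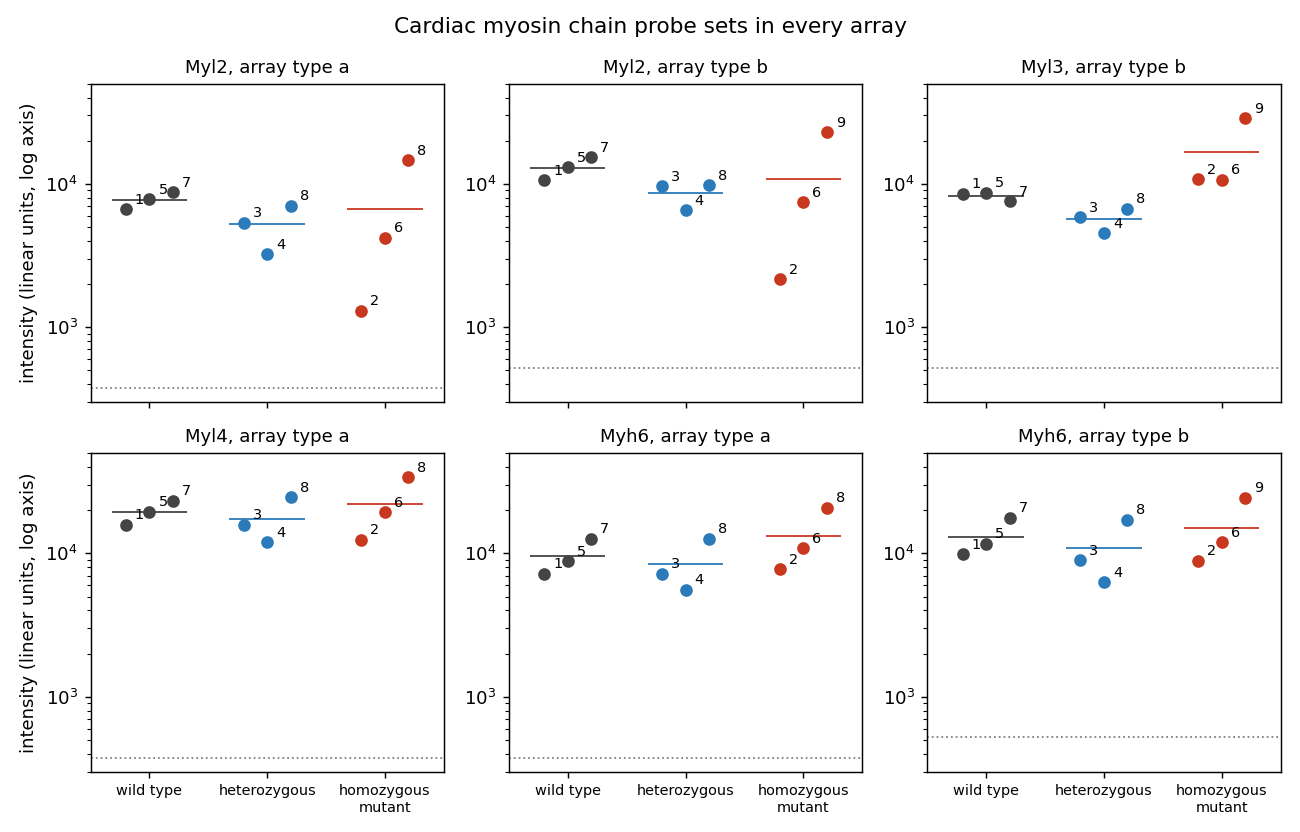
Intensity of each cardiac myosin chain probe set (log axis) in every array, with genotype on the horizontal axis, replicate numbers beside the points, the group mean as a line (n = 3) and the floor as a dotted line. The homozygous mutants of Myl2 spread 11.2-fold on type a and 10.6-fold on type b, while those of Myl3 all sit above the wild-type and heterozygous arrays. Of all tested probe sets, 15.4% did not overlap between homozygous mutant and wild type, and 22.6% between homozygous mutant and heterozygous.

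With all arrays, the homozygous mutant mean of Myl2 was 1.78-fold below wild type on type a (log2 fold change -0.83, SE 0.641, adjusted p = 0.691) and 1.79-fold below on type b (log2 fold change -0.84, SE 0.624, adjusted p = 0.681). The difference was smaller than the spread between replicates and did not pass the test. The 95% confidence interval ran from 0.213 to 1.49 of the wild-type level on type a and from 0.216 to 1.45 on type b. Without arrays 8a and 9b Myl2 did not overlap between the groups on either type, against 28% of all probe sets tested with 2 homozygous mutant arrays and 3 wild-type ones. Myl2 was then 3.27-fold below wild type on type a (log2 fold change -1.71, SE 0.437) and 3.19-fold below on type b (log2 fold change -1.67, SE 0.429), with an adjusted p of 0.144 for both, still above the threshold. Without homozygous mutant 2 instead, the log2 fold changes were 0.03 and 0.03. With 8a and 9b kept, the negative sign of the Myl2 difference therefore depends on homozygous mutant 2. Homozygous mutant 6 was also below the wild-type mean, at log2 deviations of -0.87 (type a) and -0.78 (type b). Arrays 8a and 9b were above that mean, at 0.94 and 0.84, and so offset homozygous mutant 6 when homozygous mutant 2 was left out. Wild type 1, heterozygous 4 and homozygous mutant 2 were also the arrays with high Afp, a marker of liver bud and visceral endoderm. Within those arrays Myl2 differed by -2.35 on type a and -2.29 on type b on the log2 scale (1 array against 1), and within the others by -0.07 and -0.11 (2 against 2), and the part of Afp in the result was not tested.

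Myl3, the ventricular essential light chain, had a higher mean in homozygous mutants, and its groups did not overlap, though no difference passed the test. Of all tested probe sets, 15.4% did not overlap between homozygous mutant and wild type. The share was 22.6% between homozygous mutant and heterozygous, and 6.37% between heterozygous and wild type. Its intensity on type b was 8552, 8670 and 7572 in wild type 1, 5 and 7, 5859, 4548 and 6725 in heterozygous 3, 4 and 8, and 10732.5, 10695 and 28777 in homozygous mutant 2, 6 and 9b. Every heterozygous array lay below every wild-type array, and every homozygous mutant array above both, with 9b the highest by far. The order of the means was heterozygous 5711 ± 1100, wild type 8265 ± 603 and homozygous mutant 16735 ± 10429 (SD, n = 3). The spread within wild type was 1.14-fold, and homozygous mutants 2 and 6 were within 1.00347-fold of each other.

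Against wild type, Myl3 was 1.81-fold higher in homozygous mutants (95% confidence interval 1.08 to 3.01, log2 fold change 0.85, SE 0.334), with an unadjusted p of 0.0269 and an adjusted p = 0.355 by limma, so it did not pass. Without array 9b the log2 fold change was 0.38 (SE 0.187, adjusted p = 0.430). Against heterozygous embryos Myl3 was 2.64-fold higher (95% confidence interval 1.59 to 4.40, log2 fold change 1.40, SE 0.334, adjusted p = 0.0704). Without 9b that log2 fold change was 0.93 (SE 0.187, adjusted p = 0.0537). This was the member that came nearest to the threshold in any comparison. Homozygous mutant against wild type Myl3 differed by 0.33 on the log2 scale within the high-Afp arrays and by 1.11 within the others.

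Myl4, the atrial essential light chain, did not separate the genotypes. Its intensity on type a was 15837, 19494 and 23326 in wild type 1, 5 and 7, 15841, 11960 and 24616 in heterozygous 3, 4 and 8, and 12495, 19297 and 34034.5 in homozygous mutant 2, 6 and 8a. The homozygous mutants enclosed the whole wild-type range, and the lowest array of all was heterozygous 4. The order of the means was heterozygous 17473 ± 6484, wild type 19552 ± 3745 and homozygous mutant 21942 ± 11010 (SD, n = 3), and neighbours in it did not differ beyond their spread. The log2 fold change of homozygous mutant over wild type was 0.06 (SE 0.343, adjusted p = 0.965), with a 95% confidence interval of 0.621 to 1.76 of the wild-type level. It was -0.31 without array 8a.

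Myh6, the alpha heavy chain, varied across arrays much as Myl4 did. On type a its intensity was 7219, 8842 and 12635 in wild type 1, 5 and 7, 7211.5, 5580 and 12674 in heterozygous 3, 4 and 8, and 7726.5, 10881 and 20832.5 in homozygous mutant 2, 6 and 8a. On type b it was 9832, 11668 and 17748 in wild type, 8974, 6303 and 17192 in heterozygous and 8887, 11951 and 24475 in homozygous mutant 2, 6 and 9b. Each genotype overlapped the others on both types, heterozygous 4 was the lowest array, and 8a and 9b were the highest. The order of the means was heterozygous, wild type, homozygous mutant on both types, with 8489 ± 3715.5, 9565 ± 2779 and 13147 ± 6840 on type a and 10823 ± 5675, 13083 ± 4143 and 15104 ± 8258 on type b (SD, n = 3), and neighbours did not differ beyond their spread. The log2 fold change of homozygous mutant over wild type was 0.37 (SE 0.370, adjusted p = 0.791) on type a and 0.12 (SE 0.419, adjusted p = 0.946) on type b. The 95% confidence intervals ran from 0.739 to 2.27 and from 0.573 to 2.05 of the wild-type level, and without 8a and 9b the log2 fold changes were -0.02 and -0.30. Both Myh6 probe sets also carry the suffix for a sequence family, so a contribution of Myh7 transcripts was not tested.

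No cardiac myosin chain passed the limma test at an adjusted p under 0.05 in any comparison of genotypes. Over all 6935 tested probe sets, 0.692% were called between homozygous mutant and wild type, 0% between heterozygous and wild type and 1.15% between homozygous mutant and heterozygous. Without 8a and 9b these shares were 0.584%, 0% and 0.993%, and again no member was called. At an unadjusted p under 0.05, 118 probe sets passed between heterozygous and wild type, none of them a member. When 8a and 9b, which enter only the shared spread, were left out, 148 passed and Myl3 was among them. It then ranked 22 of 6847 probe sets in limma's test (log2 fold change -0.55, SE 0.167, adjusted p = 0.9997). For homozygous mutant against wild type 777 probe sets passed at this level with all arrays, 1 of them a member (Myl3), and 895 without 8a and 9b, 2 of them members (both Myl2 probe sets). For homozygous mutant against heterozygous 1090 passed, again with Myl3, and 1104 without 8a and 9b, 3 of them members (Myl3 and both Myl2 probe sets). Of the 6 member probe sets 1, that of Myl3, had non-overlapping groups between homozygous mutant and wild type, against 15.4% of all tested probe sets. Between homozygous mutant and heterozygous it was again Myl3 alone, against 22.6% of all. When 8a and 9b were left out, 3 of the 6 (Myl3 and both of Myl2) did not overlap between homozygous mutant and wild type, against 28% of all, and Myl3 alone between homozygous mutant and heterozygous, against 36.3%. These counts cover few probe sets, with Myl2 measured on both types, and nothing is read from them about the members as a group.

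The direction of the members differed between the comparisons. Between homozygous mutant and wild type 4 probe sets had a positive log2 fold change and 2 a negative one, with a median of 0.09 against -0.02 over all tested probe sets. Without 8a and 9b, 1 was positive and 5 were negative, with a median of -0.31, so the balance of signs rests on those arrays. Between homozygous mutant and heterozygous the median was 0.37 with all arrays and -0.02 without 8a and 9b. These comparisons share their arrays.

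**Figure D2:**
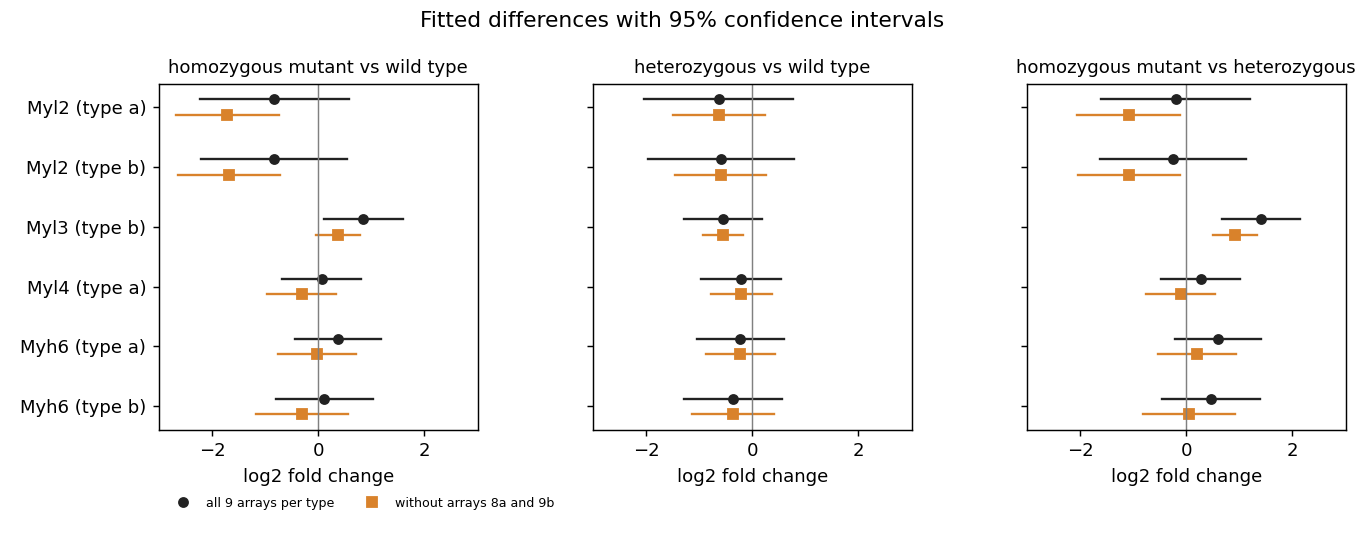
Log2 fold change of each probe set with its 95% confidence interval from the limma fit, in a panel per comparison of genotypes, with all 9 arrays per type (circles) and without arrays 8a and 9b (squares). The Myl2 estimate against wild type moved from -0.83 to -1.71 on type a when 8a was left out, and that of Myl3 moved from 0.85 to 0.38 when 9b was left out.

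In heterozygous embryos all 6 member probe sets had a mean log2 level below wild type, and none passed the test. The log2 fold changes were -0.63 and -0.59 for Myl2 on types a and b, -0.55 for Myl3, -0.36 and -0.22 for Myh6 on types b and a, and -0.21 for Myl4, each with an adjusted p of 1. Their median was -0.45, against 0.03 over all tested probe sets. The 6 tested heart muscle markers, described below, also had 0 positive values, with a median of -0.27. Of 8 tested genes of the thin filament and Z disc, 2 had positive values, and the median was -0.17. The direction was thus not particular to the myosin chains. Heterozygous and wild-type arrays did not overlap for Myl3 and for Myl2 on type b, against 6.37% of all tested probe sets without overlap in either direction, or 6.46% of those tested without 8a and 9b. On type a, heterozygous 8 had 7041 for Myl2 and lay within the wild-type range. Heterozygous 4, an array with high Afp, was the lowest heterozygous array for every member, and without it the Myl2 differences were -0.32 on type a and -0.41 on type b. Standard errors for Myl2 on types a and b were 0.641 and 0.624, and they share the spread of the homozygous mutants. They were 0.391 and 0.384 without 8a and 9b for the same heterozygous and wild-type arrays, and the differences still did not pass (adjusted p = 0.9997).

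The chains were then set against each other within an array, so that a shift common to both chains of an array cancels. In all, 12 differences of log2 level were compared for each pair of genotypes with an exact two-sided permutation test, for which 3 arrays against 3 allow no p below 0.1, and p-values were adjusted over the 12. Several pairs were named at the outset, and of these only Myl2 and Myl3, on type b, had both chains measured on the same array type. The other 11 differences were added after the values had been seen. A difference shows unequal change and not which chain changed.

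Relative to the wild-type mean, Myl2 minus Myl3 was -0.33, -0.05 and 0.38 in wild type 1, 5 and 7, 0.07, -0.11 and -0.09 in heterozygous 3, 4 and 8, and -2.95, -1.15 and -0.97 in homozygous mutant 2, 6 and 9b. All 3 homozygous mutants, 9b included, lay below all other arrays. The regulatory ventricular chain was thus lower against the essential ventricular chain in every homozygous mutant array. The difference was -1.69 (SD 1.09 in homozygous mutants and 0.356 in wild type, n = 3, exact permutation p = 0.1, adjusted p = 0.3), and -2.05 without 9b. Heterozygous arrays differed from wild type by -0.04 (exact permutation p = 0.8, adjusted p = 0.9).

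Against Myh6 the light chains went different ways. Myl3 minus Myh6 was 0.73 higher in homozygous mutant than in wild type without overlap, and Myl4 minus Myh6 was lower by 0.31 without overlap (difference -0.31, SD 0.0730 and 0.146), both with an exact permutation p of 0.1 and an adjusted p of 0.3. Myl2 minus Myh6 differed by -1.20 on type a and -0.95 on type b with overlap, since arrays 8a and 9b lay at -0.23 and -0.11 relative to the wild-type mean. Without 8a and 9b these differences were -1.69 and -1.38. Between heterozygous and wild type, Myl2 minus Myl4 differed by -0.42 without overlap (exact permutation p = 0.1, adjusted p = 0.6).

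**Figure D3:**
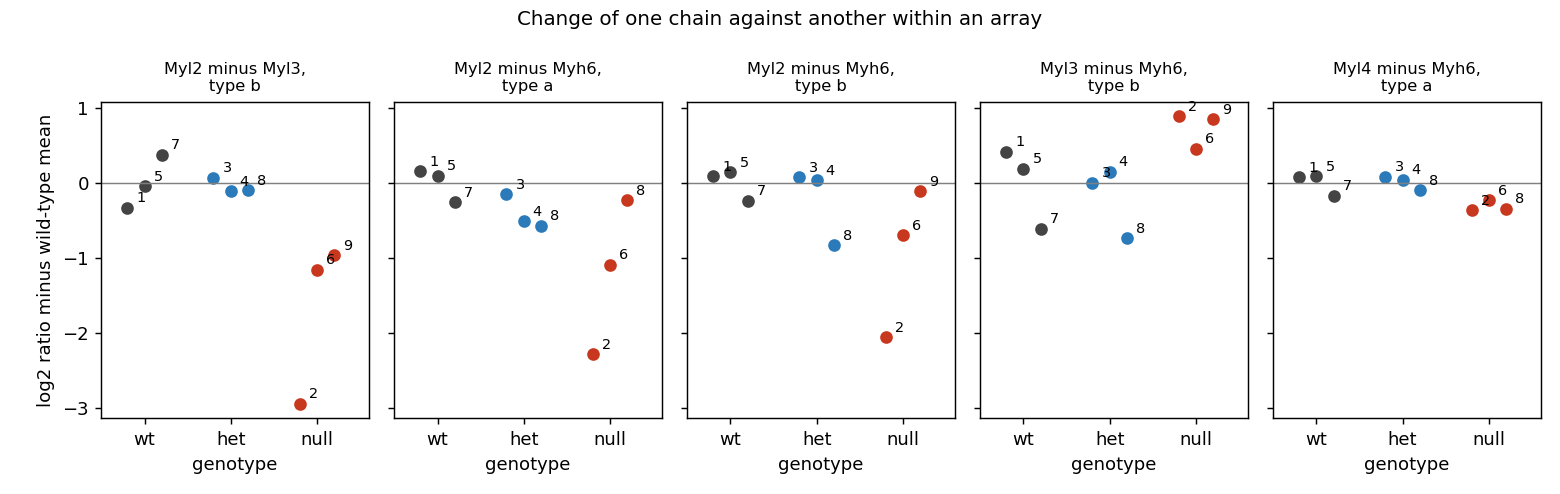
Log2 ratio of one chain to another within each array, as the difference from the wild-type mean, by genotype (wt, wild type, het, heterozygous, null, homozygous mutant) with replicate numbers beside the points. Myl2 against Myl3 lies at -2.95, -1.15 and -0.97 in the 3 homozygous mutants, below every other array, while Myl2 against Myh6 reaches the wild-type range on 8a and 9b.

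Other genes of heart muscle show what moved with the chains on the same arrays. Tnnt2 and Tnnc1, the cardiac troponin T and the slow and cardiac troponin C, are on type a, and Actc1 and Tnni3, the cardiac alpha actin and cardiac troponin I, are on type b. Tnnt2 was 3399, 7152 and 9253 in wild type 1, 5 and 7, 5626, 4091 and 9219 in heterozygous 3, 4 and 8, and 3488, 6898.5 and 14357.5 in homozygous mutant 2, 6 and 8a, so it too was highest on 8a. Tnni3 was 4047 and 4803.5 in homozygous mutant 2 and 6 and 15004 on 9b, against 4864 to 7621.5 in wild type. The Actc1 probe set, like those of Myl2 and Myh6, carries the suffix for a sequence family, and signal from related genes was not tested. Actc1 was 71432 on 9b and stayed within the wild-type range of 51001 to 81914. Arrays 8a and 9b thus gave the highest value of their type for 3 of these 4 genes and for all 6 member probe sets. High values on 9b were not limited to heart muscle genes. Summed red cell markers were 207607 on 9b, against 116085 to 159756 in wild type. Summed endothelium markers were 6593 there, against 3138 to 3980. On 8a the endothelium sum was 2891 against 1733 to 2748, and the red cell marker of that type, 50369, lay within the wild-type range.

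Measured against these genes in the same array, Myl2 in homozygous mutants 2 and 6 remained below every wild-type array on both types. Myl3 remained high in all homozygous mutants. Myl3 minus the mean of Actc1 and Tnni3 was 0.84 higher in homozygous mutant than in wild type without overlap, and 0.72 without 9b. Myl2 differed by -1.03 on type a and -0.85 on type b with overlap, and by -1.51 and -1.33 without 8a and 9b. Myh6 differed by 0.17 and 0.11 and Myl4 by -0.14, all within the spread of the arrays. Each of these had an exact permutation p of 0.1 to 0.7 and an adjusted p of 0.3 to 0.7. In heterozygous embryos Myl2 minus Actc1 and Tnni3 was -0.33 without overlap (exact permutation p = 0.1, adjusted p = 0.6).

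**Figure D4:**
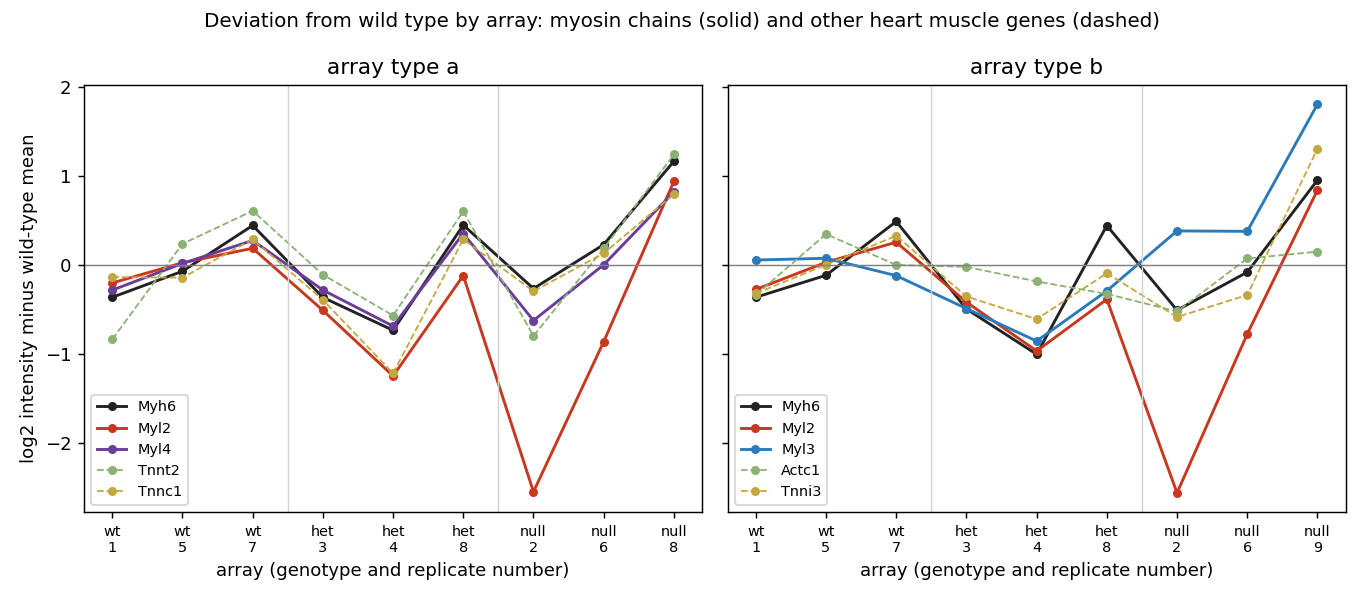
Log2 intensity as the deviation from the wild-type mean of each probe set, across the 9 arrays of each type (wt, wild type, het, heterozygous, null, homozygous mutant), for myosin chains (solid lines) and for troponin and actin genes of heart muscle (dashed lines). All lines are below 0 in heterozygous 4 and above 0 on 8a and 9b, Myl2 is lowest in homozygous mutant 2, and Myl3 is above 0 in all 3 homozygous mutants.

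Over the 9 arrays of a type, Myh6 and Myl4 moved most closely together, with Pearson's r of 0.955, and 0.917 over 8 arrays without 8a. Myl2 and Myl4 had 0.837 and 0.763. Myl2 and Myl3 had the weakest relation, 0.312 over 9 arrays and -0.279 without 9b. The remaining pairs, Myh6 with Myl2 and with Myl3, had 0.655 to 0.670 over 9 arrays and 0.321 to 0.506 over 8. These are descriptions of arrays that include 3 genotypes and share their RNA between chains, and no p is given.

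The genes whose levels ran most like a member's were taken at the brightest probe set, by Pearson's r over the 9 arrays, from 977 named genes on type b and 3131 on type a. For Myl4 they were Tnnt2 (0.943), Erp29 (0.933) and Clk3 (0.933). For Myl2 they were Myom1, an M-band protein of the thick filament (0.842), Lamtor5 (0.820) and Nnt (0.816), for Myl3 Eno3, the muscle enolase (0.928), Rpl36 (0.921) and Cox7a2l (0.913), and for Myh6 Nfkbia (0.901), Cryab, a small heat shock protein of muscle and lens (0.890), and Mgp (0.886). For Myl4 the nearest gene was thus a thin filament gene, and for Myl2 on type b a thick filament gene. For the dimmer Myl2 probe set, on type a, the nearest over 9 arrays were Sgta (0.910), Smdt1 (0.901) and Mcm5 (0.8995), none of them a sarcomere gene. For the dimmer Myh6 probe set, also on type a, they were Erp29 (0.959), Gpx3 (0.957) and the thin filament gene Tnnc1 (0.935). Over 8 arrays Tnnc1 had 0.916 with it and was not in the first 3, and Uqcrc2 was nearest (0.982). Over the 8 arrays without 8a or 9b the nearest genes were Ormdl1 for Myl4 (0.965), Mrps11 for Myl2 (0.902), Sec23a for Myl3 (0.941) and Clns1a for Myh6 (0.953), and Myom1 was the only gene kept in the first 3 for any of the 4 members (0.882). For the type a probe set of Myl2, the nearest gene over 8 arrays was Nppb, the B-type natriuretic peptide of heart muscle (0.965, 0.705 over 9 arrays), which was singled out after its values were seen.

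Other genes of the myosin system showed no call in any comparison. Of 12 other heavy chains 2 were tested, Myh8, a perinatal skeletal chain, at a log2 fold change of 0.40 between homozygous mutant and wild type, and Myh9, a nonmuscle chain, at 0.33. These were 0.39 and 0.34 without 8a and 9b. Of 8 other light chains 3 were tested. Myl1, the fast skeletal essential chain, had -0.43 (-0.86 without 8a), and the nonmuscle regulatory chain Myl12b had -0.34 (-0.12 without 8a). The fast skeletal regulatory chain Mylpf passed the filter on 3 arrays, with a mean of 471.6 in wild type, 252.0 in heterozygous and 201.7 in homozygous mutant, near or under the floor, so its value of -0.32 was set by the floor and shows no difference of its own. Of 12 regulators of the light chains 2 were tested, the phosphatase subunit Ppp1cb (0.04, and 0.40 without 8a) and the kinase Rock1 (0.31, and 0.52 without 8a). Adjusted p-values of these 7 genes lay between 0.453 and 0.977 with all arrays and between 0.265 and 0.784 without 8a and 9b, and the median of all tested probe sets was -0.02.

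Of 16 genes for myosin folding, assembly and the thick filament 3 were tested, with no call. The M-band gene Myom1 had the lowest log2 fold change between homozygous mutant and wild type, -0.74 (SE 0.341, adjusted p = 0.453), then Smyd1, a methyltransferase needed for myofibril assembly, -0.50 (SE 0.227, adjusted p = 0.443), and Hsp90aa1, a chaperone of myosin folding, had 0.04. Myom1 had -1.03 without 9b (SE 0.323, adjusted p = 0.202), Smyd1 had -0.47 without 8a and Hsp90aa1 had 0.0032 without 9b. Smyd1 was 369, 435 and 340 in homozygous mutant 2, 6 and 8a, near or under the floor of 375.1, against 572.5 ± 153 in wild type (SD, n = 3). Its values were thus partly set by the floor. Of 20 genes of the thin filament and Z disc 8 were tested, with a median of -0.05, 4 positive values and no call. The median of the 7 still tested without 8a and 9b was -0.31, 1 of them positive. The highest values were those of Tnnc1 and Tnnt2, both 0.21, which were -0.086 and -0.31 without 8a and so rest on that array. The lowest were those of desmin, Des, -0.69 (-0.76 without 8a), and skeletal alpha actin, Acta1, -0.46 (SE 0.152, adjusted p = 0.263, and -0.48 without 8a). Acta1 was 7591.5, 7109 and 7707 in homozygous mutant 2, 6 and 8a, against 10334 ± 1545 in wild type (SD, n = 3). None of these genes passed the adjusted test.

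Heart muscle was present in every sample by its markers. Of 10 heart muscle markers 6 had a probe set, all were tested, and none was called. Their summed intensity on type a ranged from 17336 to 27819 in wild type, from 10900 to 27397 in heterozygous and from 15293 to 39343 in homozygous mutant, the last value being that of 8a (15293 to 22920 without it). On type b the sums were 56330 to 88564, 57862 to 68724 and 49494 to 87604, or 49494 to 73534 without 9b. The summed signal thus overlapped between genotypes. On type b most of it was Actc1, with a wild-type mean of 65764 against 6188 for Tnni3. The Actc1 probe set carries the suffix for a sequence family, and signal from related genes was not tested. Nppb alone of these 6 had homozygous mutant values that did not overlap wild type, against 15.4% of all tested probe sets. They were 454 in 2, 770 in 6 and 832 in 8a, against 1477 ± 190 in wild type (SD, n = 3). The log2 fold change of Nppb was -1.15 (SE 0.300, adjusted p = 0.129). Without 8a it was -1.31 (SE 0.315, adjusted p = 0.123).

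Other cells could also contribute to myosin chain signal. Of 8 skeletal muscle markers 5 were not above the floor on 3 arrays, among them Myf5, Myf6 and Tnnt3, while Myog was above it on all 9 arrays (1613 ± 1090 in wild type and 1909 ± 540 in homozygous mutant, SD, n = 3). The summed skeletal markers on type a were 1492 to 3723 in wild type, 1678 to 2209 in heterozygous and 2329 to 3172 in homozygous mutant, or 2569.5 to 3172 without 8a. Of 5 smooth muscle markers 3 were tested, and all 3 were above the floor on all 9 arrays. Acta2 was 42887 ± 5733 in wild type, Tagln 5894 ± 1666 and Cnn1 1211 ± 252 (SD, n = 3). Myh11, their defining heavy chain, was not above the floor on 3 arrays and had a negative mean in each genotype (-500 in wild type). The neural tube markers had a summed intensity on type a of 10250 to 13058 in wild type, 10360 to 12899 in heterozygous and 5073 to 8194 in homozygous mutant, or 5917 to 8194 without 8a. Of all these marker lists only Hes5, a neural target of Notch, was called, between homozygous mutant and heterozygous (log2 fold change -1.26, SE 0.245, adjusted p = 0.0335). Without 8a that call was lost (log2 fold change -1.09, SE 0.247, adjusted p = 0.0755). The part of other tissues in the myosin chain values was not tested.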

How the data were processed

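Total RNA of 18 mouse samples, 9 on each of 2 array types, was analysed. The deposited table of each type holds intensity on a linear scale with background subtracted, as negative values show. Which array software and scaling were applied is not given in the sources used here. The authors' scaling was kept. Groups came from the sample titles. Control probe sets were left out, 61 per type, which left 13057 probe sets. Gene symbols are those of the platform annotation, brought up to date by gene identifier, and 7542 probe sets had 1 symbol.

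The floor was 2 times the noise SD (187.5 on type a, 261.5 on type b), where the noise SD was taken from the median size of negative values. Lower values were raised to the floor before log2, so fold changes next to the floor are understated. A probe set above the floor on at least 3 of 9 arrays was tested, 6935 in all. The test was limma 3.58.1 in R 4.3.3 (lmFit, eBayes with an intensity trend, two-sided) on the 9 arrays of each type, with Benjamini-Hochberg adjustment over both types together and a threshold of 0.05. Precision is limited by having 3 arrays per genotype on each type. Chain differences within an array were tested by exact permutation over samples. Of these steps only the limma fit was run on simulated data, with the floor and the filter switched off.

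Named genes are all members, and in the other lists those called, or the 2 highest and 2 lowest log2 fold changes between homozygous mutant and wild type. Tnni3, Actc1 and Nppb are named outside this rule, after their values were seen. So are Myog, Acta2, Tagln, Cnn1, Sgta, Smdt1, Mcm5, Gpx3, Uqcrc2 and the markers under the floor. Likeness was ranked over 9 and over 8 arrays, the first 3 genes each. The members and the lists were chosen with earlier results of these data known. Of 12 chain differences 11 were added after the values were seen. Alternatives changed the floor, the filter, the scaling, the fit, a block for high Afp and the arrays left out.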

Additional observations from a re-analysis of the deposited data

How the results depend on the processing

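No member was called under any of the 21 alternatives. Of 378 recomputed log2 fold changes of members 363 kept their sign and 15 reversed, for 10 of 18 results. Quantile normalization gave Myl4 -0.13 between homozygous mutant and wild type, and the other reversals came from leaving arrays out. Without 8a and 9b, Myh6 was -0.022 (type a) and -0.30 (type b) and Myl4 was -0.31 between homozygous mutant and wild type, and Myl4 was -0.11 between homozygous mutant and heterozygous. Leaving out each other replicate in turn gave the following lowest and highest log2 fold changes. Between homozygous mutant and wild type Myh6 on type b had -0.066 without wild type 1 and 0.43 without homozygous mutant 2, and the same arrays gave -0.93 and 0.034 for Myl2 on type a, -0.98 and 0.028 for Myl2 on type b, and -0.080 and 0.41 for Myl4. Between heterozygous and wild type, Myh6 on type a had -0.55 without heterozygous 8 and 0.039 without heterozygous 4 (5.7e-05 without wild type 7), and Myl4 had -0.49 and 0.032. Between homozygous mutant and heterozygous, Myl2 had -0.51 without heterozygous 4 and 0.66 without homozygous mutant 2 on type a (0.054 without heterozygous 8), and -0.43 and 0.62 on type b. The cause was not tested. Myl3 kept its sign in all 3 comparisons and under each of the 21 alternatives, and against heterozygous it ranged from 0.93 to 1.64 (adjusted p = 0.0514 to 0.294). No paired analysis was possible because wild type shares no replicate number with the other genotypes, and heterozygous and homozygous mutant share only the number 8.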
